A study of Pleurotus tuoliensis with 2 samples.

Results

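Mitochondria keep ribosomes of their own, which translate the few proteins encoded in mitochondrial DNA, among them core subunits of the respiratory chain and of ATP synthase. In fungi most proteins of these ribosomes are encoded in the nucleus, made in the cytosol and imported into the organelle. The large subunit carries the name 54S and joins amino acids, and the small subunit carries the name 37S (28S in animals) and reads the messenger RNA. Many of these proteins have a counterpart in bacterial ribosomes and others are particular to mitochondria. The unigenes for these proteins in the mycelium of the edible mushroom *P. tuoliensis* are described here.

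Members were found by name. A unigene was a member if the Swiss-Prot protein it matched was called a ribosomal protein and mitochondrial, 54S, 37S, 39S or 28S, was not named 60S or 40S and was no methyltransferase, and if its mean FPKM over the 6 libraries was above 1. Of 17030 unigenes, 37 met this rule, 19 of the large and 18 of the small subunit. All unigenes with such a name passed the filter on low values, so no member was lost to it. No measured difference between the groups was used in the rule.

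Mycelia of *P. tuoliensis* strain ACCC 50869 were grown in bottles on 820 g of substrate at 25 °C in the dark for 37 days. Immature mycelia came from 3 bottles sampled then (day 0), and mature mycelia from 3 bottles kept for 35 days more at 17 °C in the dark. Each library is 1 bottle of a single strain, so n = 3 in each group throughout and the spread is between cultures. Maturity, temperature and age changed together between the groups and cannot be told apart. The deposited values are FPKM, fragments scaled to unigene length and library size, which summed to 1206300 to 1238510 per library. The table gives no counts of reads, so the fragments behind each value are not known.

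The names were checked against the other annotations in the table. Each of the 37 members had a match in the Nr protein database, 33 of them with a protein named from *Pleurotus* and 4 with one that was not. The Swiss-Prot entries were 35 different ones, 20 members matching the fission yeast *Schizosaccharomyces pombe* and 11 the budding yeast *Saccharomyces cerevisiae*. Of the 37 members, 35 were in eggNOG category J (translation) and 20 carried a gene ontology term of the mitochondrial ribosome. The term was carried by 33 of the unigenes tested, so 13 with the term are not members. Among these are unigenes with bacterial names, which are described with the partner lists.

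Some names need care. Both members called S10 (DN2805_c0_g1 and DN2805_c0_g2) matched the same Swiss-Prot entry, as did both called L16 (DN9099_c1_g1 and DN10649_c0_g1), but in each pair the Nr proteins differed. The 2 members called L23 are different proteins. DN4959_c0_g1 matched the budding yeast L23, the counterpart of bacterial L13, and DN5103_c0_g1 matched the fission yeast Mrp20, the counterpart of bacterial L23 at the mouth of the exit tunnel. The putative S26A (DN8589_c0_g1), whose yeast relatives have a fold like manganese superoxide dismutase, carried the KEGG number of that enzyme, so its place in the ribosome rests on the name alone. MRP2 (DN7924_c0_g1), the S14 counterpart, was at 3129 bases the longest member and also carried terms of transcription, and how much of its FPKM belongs to the ribosomal protein is not known. S26A and MRP2 were singled out after their values were seen.

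The members were expressed at moderate levels that differed widely among themselves. Their median FPKM over the 6 libraries was 37.4, against 28.1 for all 16496 unigenes tested and 446 for the 77 unigenes of cytosolic (60S and 40S) ribosomal proteins. Mean FPKM ranged from 1.96 to 193, and 25 of the 37 members lay above the median of all unigenes. The 5 highest members held 37.9% of the summed FPKM of all members. The SD of the mean level on the log2 scale was 1.55 for the large subunit, 0.99 for the small subunit and 1.33 for the cytosolic ribosomal proteins. Thus the members of the small subunit spread less than those of the large subunit, whose 4 lowest members had a mean of 12.8 FPKM or less.

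**Figure D1:**
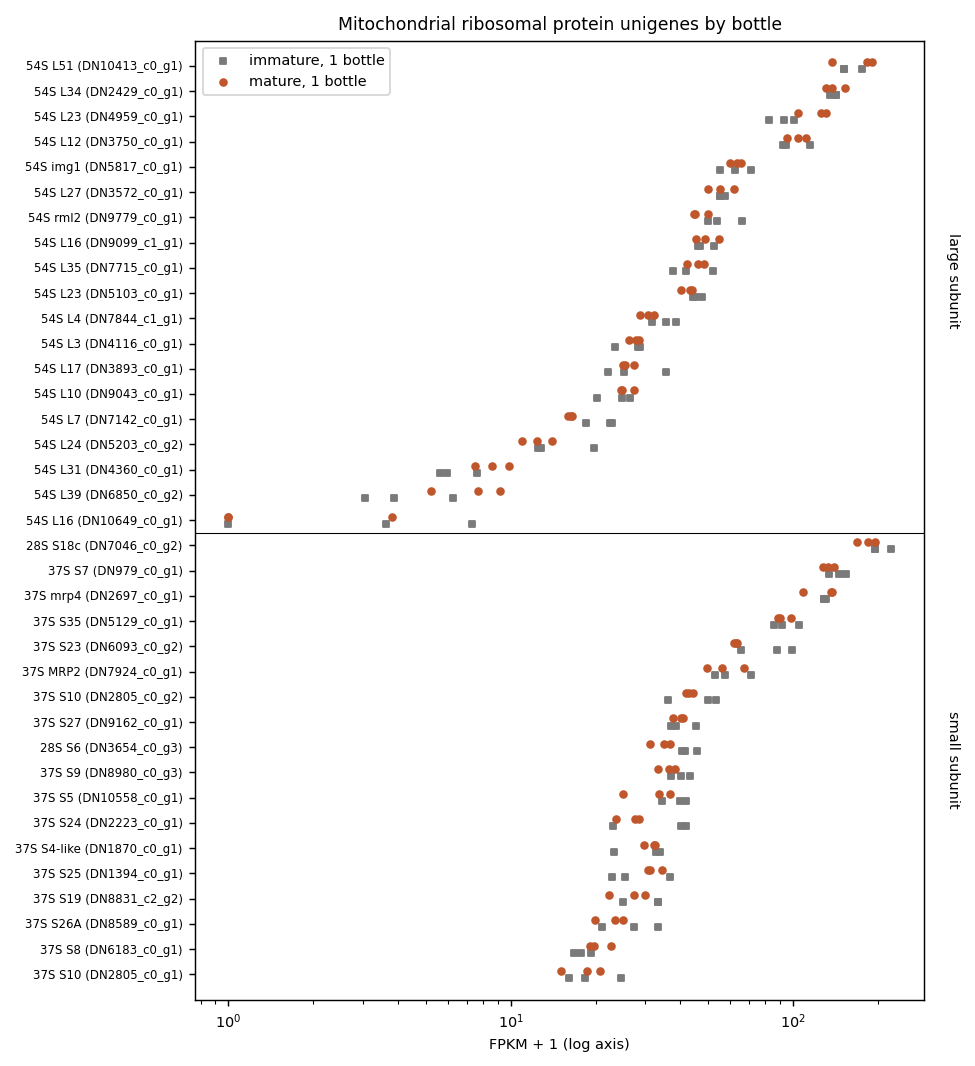
FPKM plus 1 (log axis) of the 37 mitochondrial ribosomal protein unigenes in each of the 3 immature bottles (grey squares) and 3 mature bottles (orange circles), with the large subunit above and the small subunit below the line, each ordered by mean FPKM. Levels run from a mean of 1.96 to 193 FPKM, while the bottles of both groups lie close together within most members, and 31 of the 37 members overlap between the groups. Among all unigenes tested, the groups did not overlap in 8.69% that were higher and 14.2% that were lower in mature mycelia.

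The highest member of all was S18c (DN7046_c0_g2) of the small subunit, the counterpart of bacterial S18, an RNA-binding protein. Its FPKM was 194, 221 and 194 in immature bottles 1, 2 and 3 and 195, 168 and 184 in mature bottles 1, 2 and 3. The groups overlapped, and the highest value was in immature bottle 2. S7 (DN979_c0_g1), which in bacteria starts the assembly of the small subunit head, stood at 145, 154 and 134 FPKM in the immature and 127, 139 and 132 in the mature bottles. Mrp4 (DN2697_c0_g1), the S2 counterpart, was nearly level in the immature bottles at 128, 130 and 128 FPKM and stood at 108, 137 and 135 in the mature bottles. S35 (DN5129_c0_g1), which is particular to mitochondria, ranged from 84.5 to 104 FPKM over the 6 bottles. In each of these 4 members the groups overlapped, and the log2 ratios of mature to immature were −0.16, −0.12, −0.03 and −0.02.

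In the large subunit the highest member was L51 (DN10413_c0_g1), which is particular to mitochondria. Its FPKM was 151, 175 and 150 in the immature and 137, 190 and 183 in the mature bottles, so mature bottle 1 was the lowest of the 6 and the other two mature bottles were the highest. L34 (DN2429_c0_g1), a short basic protein, ranged from 130 to 152 FPKM with a log2 ratio of 0.01 (SE 0.10). L12 (DN3750_c0_g1), which forms the stalk that recruits translation factors, ranged from 91.0 to 114 FPKM with a log2 ratio of 0.05 (SE 0.12). Img1 (DN5817_c0_g1), the L19 counterpart, ranged from 54.3 to 70.0 FPKM with a log2 ratio of 0.00 (SE 0.12). The groups overlapped in each of these 4 members.

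At the low end the values rest on little. L16 of the fragment DN10649_c0_g1, at 275 bases the shortest member, had 0, 2.63 and 6.31 FPKM in the immature and 2.80, 0 and 0 in the mature bottles, the only member with a 0. The smallest FPKM above 0 of unigenes of 265 to 285 bases was 1.90 to 2.77 in the 6 libraries, so these values are at or near the smallest step in the table. The longer L16 unigene (DN9099_c1_g1, 2546 bases) had 45.8, 51.7 and 45.2 FPKM in the immature and 53.7, 44.5 and 47.8 in the mature bottles. L39 (DN6850_c0_g2), the counterpart of bacterial L33, followed with 2.06, 5.24 and 2.87 FPKM in the immature and 6.69, 4.23 and 8.17 in the mature bottles. L31 (DN4360_c0_g1), a protein particular to mitochondria, had 6.60, 4.63 and 4.96 FPKM against 7.62, 8.86 and 6.51. Both had their highest value in a mature bottle, and in both the groups overlapped. In the small subunit the lowest were S10 (DN2805_c0_g1, 389 bases) at 14.1 to 23.5 FPKM, S8 (DN6183_c0_g1) at 15.7 to 21.8 and S26A at 18.9 to 32.4.

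The comparison of mature with immature mycelia asked whether the genes of the mitochondrial ribosome changed as the mycelium matured. The study called a unigene changed where its log2 ratio was 1 or more in either direction and its unadjusted p was 0.05 or less. No member passed these thresholds, against 3.01% of all unigenes tested. None (0) had an adjusted p of 0.05 or less by limma with Benjamini-Hochberg adjustment over the 16496 unigenes, which 0.0667% of all unigenes did, and the lowest adjusted p of a member was 0.263. At an unadjusted p of at most 0.05 alone, 1 member was higher in mature mycelia (2.70%, against 6.09% of all unigenes) and 3 were lower (8.11%, against 9.33%). The values of the 3 bottles did not overlap between the groups in 1 member that was higher (2.70%, against 8.69% of all unigenes) and in 5 that were lower (13.5%, against 14.2%). These shares were below those of all unigenes or close to them. With 3 bottles against 3, an exact permutation test of a single unigene could not give a p below 0.1. In bulk RNA, fewer transcripts per cell and fewer cells that hold them cannot be told apart.

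The log2 ratios were narrower than those of all unigenes. Their median over the 37 members was −0.07, as over all unigenes (−0.07), and the middle 50% spanned 0.25, against 0.48 for all unigenes and 0.39 for all of at least 500 bases. Such a span was not particular to the members. It was 0.19 for cytosolic ribosomal proteins, 0.15 for mitochondrial translation factors and 0.23 for mitochondrial protein import. For the respiratory chain and ATP synthase it was 0.27, and for mitochondrial tRNA ligases 0.29. Ratios of the members ran from −0.93 to 0.77, and both ends were held by low members, the L16 fragment and L39. The 95% interval of the log2 ratio lay within a 2-fold change in either direction for 35 of 37 members and within 1.41-fold for 19. These 2 counts were not made over all unigenes. The interval included 0 for 33 members. It leaves out 0 where the unadjusted p is below 0.05, as for 6.09% of all unigenes that were higher and 9.33% that were lower. The 2 members whose interval went beyond 2-fold were L39 (−0.14 to 1.68) and the L16 fragment (−3.25 to 1.38), both among the lowest members. The residual SD of the members on the log2 scale had a median of 0.160, against 0.251 for all unigenes and 0.199 for those of at least 500 bases. Across the members it was lower the higher the FPKM (Spearman correlation −0.52, n = 37 members that share the same 6 libraries).

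**Figure D2:**
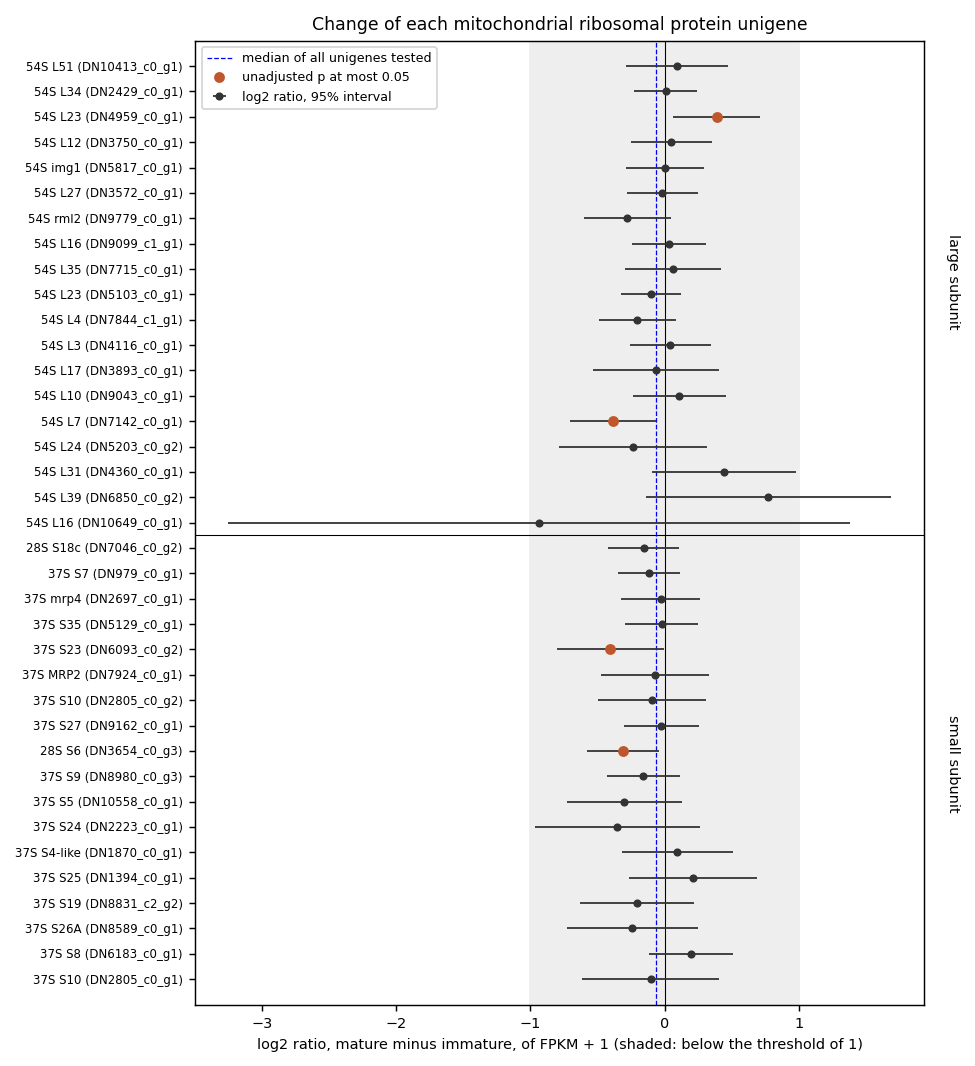
Log2 ratio of mature to immature mycelia of FPKM plus 1 for each of the 37 members (points) with its 95% interval (lines), in the order of the plot of levels. Grey shading marks log2 ratios between −1 and 1, the dashed line the median of all unigenes (−0.07) and orange points the 4 members with an unadjusted p of at most 0.05. Of the 37 intervals, 35 stay inside the shading, a count that was not made over all unigenes.

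The member that was higher in mature mycelia was L23 (DN4959_c0_g1), the L13 counterpart, which binds early in large subunit assembly in bacteria. Its FPKM was 91.7, 81.2 and 100 in the immature and 103, 130 and 125 in the mature bottles. Every mature bottle was above every immature bottle, but mature bottle 1 lay only just above immature bottle 3. The log2 ratio was 0.39 (SE 0.13, 95% interval 0.06 to 0.71), with an adjusted p of 0.263 by limma. The other L23 (DN5103_c0_g1) stood the other way, at 43.3, 46.5 and 43.9 FPKM in the immature and 39.1, 43.0 and 42.4 in the mature bottles. Its groups did not overlap either, but the log2 ratio was −0.10 (SE 0.09) and the interval included 0.

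L7 (DN7142_c0_g1), the counterpart of bacterial L5, which holds the 5S RNA in bacteria, was lower in mature mycelia. Its FPKM was 17.5, 22.0 and 21.6 in the immature bottles and nearly level at 15.02, 15.3 and 15.5 in the mature bottles. The log2 ratio was −0.38 (SE 0.13, 95% interval −0.70 to −0.06, adjusted p = 0.266 by limma). Rml2 (DN9779_c0_g1), the L2 counterpart next to the peptidyl transferase centre, had 49.1, 65.0 and 53.0 FPKM in the immature and 49.0, 43.7 and 43.9 in the mature bottles. The groups were separated only by the gap between 49.0 and 49.1 FPKM, and the log2 ratio was −0.28 (SE 0.13). L4 (DN7844_c1_g1), the L29 counterpart at the exit tunnel, overlapped between the groups at 30.6, 37.6 and 34.5 against 27.8, 29.6 and 31.3 FPKM.

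In the small subunit, S23 (DN6093_c0_g2) had the lowest log2 ratio. It is the homologue of human DAP3, a GTP-binding protein particular to mitochondrial ribosomes. Its FPKM was 64.7, 98.5 and 86.8 in the immature and 61.9, 62.5 and 60.8 in the mature bottles. The mature bottles were nearly level, while immature bottle 1 was close to them and the other two immature bottles were well above. The log2 ratio was −0.41 (SE 0.16, 95% interval −0.81 to −0.01), with an adjusted p of 0.318 by limma. S6 (DN3654_c0_g3), the counterpart of bacterial S6, which pairs with S18, had 39.3, 44.8 and 40.4 FPKM in the immature and 35.8, 30.3 and 33.9 in the mature bottles. The groups did not overlap, and the log2 ratio was −0.31 (SE 0.11, 95% interval −0.58 to −0.04, adjusted p = 0.277 by limma).

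S24 (DN2223_c0_g1) and S5 (DN10558_c0_g1), the latter a counterpart of a bacterial protein at the entry of the messenger RNA, had log2 ratios of −0.35 (SE 0.25) and −0.30 (SE 0.18). S24 stood at 22.0, 39.01 and 40.9 FPKM in the immature and 27.5, 22.7 and 26.5 in the mature bottles, so immature bottle 1 was the lowest of all. Only 3 members of the small subunit had a log2 ratio above 0. They were S25 (DN1394_c0_g1, 0.21, SE 0.20), S8 (DN6183_c0_g1, 0.20, SE 0.13), which binds the central domain of the small subunit RNA in bacteria, and S4-like (DN1870_c0_g1, 0.09, SE 0.17). All 3 overlapped between the groups.

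L24 (DN5203_c0_g2), the L28 counterpart, had a log2 ratio of −0.24 (SE 0.23) and overlapped between the groups. The other 10 members lay between log2 ratios of −0.20 and 0.11, each with an interval that included 0 and with overlap between the groups. In the large subunit these were L27 (DN3572_c0_g1, −0.02), which lies near the peptidyl transferase centre in bacteria, L35 (DN7715_c0_g1, 0.06), L3 (DN4116_c0_g1, 0.04), L17 (DN3893_c0_g1, −0.07) and L10 (DN9043_c0_g1, 0.11), the L15 counterpart. L3 carries the name of a bacterial protein but belongs to the ribonuclease III family and is particular to mitochondria. In the small subunit they were MRP2 (DN7924_c0_g1, −0.07), the longer S10 (DN2805_c0_g2, −0.09), S27 (DN9162_c0_g1, −0.02), S9 (DN8980_c0_g3, −0.16), whose bacterial counterpart reaches the decoding site, and S19 (DN8831_c2_g2, −0.20), a protein of the head. MRP2 showed the widest spread of them in FPKM, at 70.3, 52.2 and 56.3 in the immature and 48.7, 66.2 and 55.3 in the mature bottles. Its highest value was in an immature bottle and its lowest in a mature one, with the others in mixed order.

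The median log2 ratio was 0.01 in the large subunit, where 8 members were below 0 and 11 above, and −0.11 in the small subunit, where 15 of 18 were below 0. Over all unigenes 57.7% were below 0, and after median centring the count of 15 became 12. The 6 unigenes with bacterial names, all with a log2 ratio below 0, are in neither subunit in these medians, sums and ratios. Summed over its members, the large subunit came to 883, 1010 and 961 FPKM in the immature and 926, 988 and 1014 in the mature bottles. The small subunit came to 1024, 1155 and 1113 FPKM in the immature and 976, 1011 and 1021 in the mature bottles. Thus the small subunit was higher in every immature bottle than in any mature bottle, with immature bottle 1 at 1024 FPKM just above mature bottle 3 at 1021, and the large subunit overlapped. Since both sums come from the same library, their ratio does not depend on how the library was scaled. The small subunit sum over the large subunit sum was 1.16, 1.14 and 1.16 in the immature and 1.05, 1.02 and 1.01 in the mature bottles, without overlap. This ratio was chosen after the values were seen and was not tested.

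With each of the 37 members left out in turn, the ratio did not overlap between the groups in any of the 37 cases. All these cases, and the forms that follow, use the same bottles. They show that no single member carried the separation, and cannot tell it from chance differences between bottles. Among all unigenes tested, the groups also did not overlap in 8.69% that were higher and 14.2% that were lower in mature mycelia. The largest differences in mean FPKM were in L23 (DN4959_c0_g1, mature 28.5 higher), S23 (DN6093_c0_g2, −21.6) and S18c (DN7046_c0_g2, −21.1). Without that L23 unigene the ratio was 1.24 to 1.29 in the immature and 1.15 to 1.19 in the mature bottles. Without S23 it was 1.05 to 1.09 and 0.947 to 0.987, and without S18c 0.924 to 0.956 and 0.826 to 0.853. Among members of at least 500 bases it was 1.67 to 1.72 and 1.49 to 1.52. With each of these members given equal weight, the mean log2 level of the small subunit was above that of the large subunit by 0.57 to 0.66 in the immature and by 0.40 to 0.47 in the mature bottles. The groups did not overlap in these last 2 forms either.

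**Figure D3:**
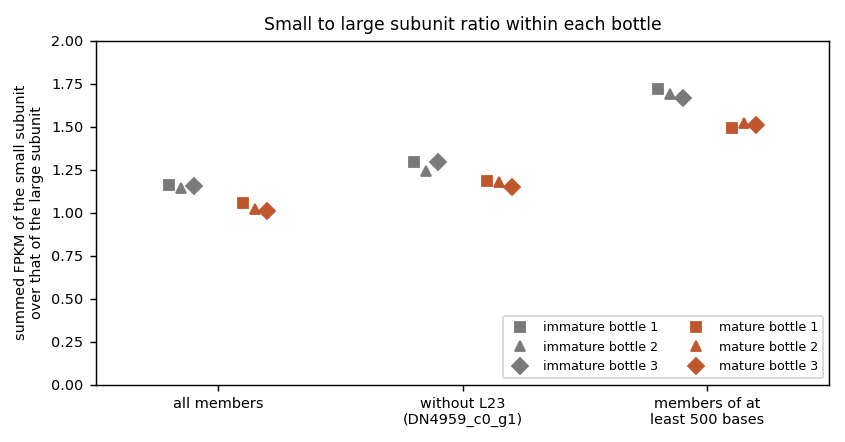
Summed FPKM of the small subunit divided by that of the large subunit in each of the 6 bottles (grey, immature, orange, mature, with a symbol for each bottle number), for all members, without the L23 unigene DN4959_c0_g1 and for members of at least 500 bases. The immature bottles lie above the mature bottles in each form, at 1.14 to 1.16 against 1.01 to 1.05 for all members.

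Members with a bacterial counterpart and members particular to mitochondria were also set side by side. The 26 members with a counterpart had a median log2 ratio of −0.10, and their FPKM summed to 1486 ± 66.8 in the immature and 1434 ± 36.1 (SD, n = 3) in the mature bottles. The 11 members particular to mitochondria had a median of −0.02, and sums of 563 ± 64.3 and 544 ± 34.6. Both sums differed by less than 1 SD of the immature bottles. This grouping was made by hand from known families after the values were seen.

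The bottles of a group differed in a way that many members shared. Immature bottle 1 was the lowest of its group for 25 of 37 members (67.6%), against 31.3% of all unigenes, and immature bottle 2 was the highest for 25 of 37 (67.6%), against 29.95%. Mature bottle 1 was the lowest of its group for 18 of the 36 members without ties (50%, against 32.5%). Summed over all 37 members, FPKM was 1906, 2165 and 2075 in the immature and 1901, 1999 and 2035 in the mature bottles. The sums overlapped, at 2049 ± 131 and 1978 ± 69.0 (SD, n = 3), and came to 0.155% to 0.177% of all FPKM in a library. Leaving out immature bottle 1 gave 7 members lower at an unadjusted p of at most 0.05, in place of 3. Leaving out immature bottle 2 or 3 or mature bottle 2 or 3 gave 0, and leaving out mature bottle 1 gave 1. The shares of all unigenes lower at that p were 9.58%, 8.95% and 6.79% without immature bottles 1, 2 and 3. They were 12.1%, 6.18% and 6.07% without mature bottles 1, 2 and 3. Without immature bottle 2, L39 (DN6850_c0_g2) passed the thresholds of the study at a log2 ratio of 1.06, with an adjusted p of 0.320 by limma.

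The cytosolic ribosome stood apart from the mitochondrial one. Of its 77 unigenes, 76 had a log2 ratio above 0 and 1 below 0 (1.30%, against 57.7% of all unigenes), with a median of 0.36. At an unadjusted p of at most 0.05, 12 were higher in mature mycelia (15.6%, against 6.09% of all unigenes). None (0) were lower, against 9.33% of all unigenes. None passed the thresholds of the study or an adjusted p of 0.05. Their summed FPKM was 111.7%, 91.0% and 97.3% of the immature mean in immature bottles 1, 2 and 3 and 96.2%, 150.2% and 157.2% in mature bottles 1, 2 and 3. The difference thus lay in mature bottles 2 and 3. Without mature bottle 1 the count of 12 became 70, without mature bottle 2 or 3 it became 0 and without immature bottle 2 or 3 it became 1. The shares of all unigenes higher at that p were 6.82%, 4.45% and 3.96% without mature bottles 1, 2 and 3. They were 4.63% and 4.61% without immature bottles 2 and 3. The members did not share the difference in summed FPKM, at 92.8%, 97.6% and 99.3% of their immature mean in mature bottles 1, 2 and 3. Cytosolic ribosomal protein FPKM per member FPKM was 20.8, 14.9 and 16.7 in the immature and 18.0, 26.7 and 27.5 in the mature bottles. The ratio was highest in mature bottles 2 and 3, and mature bottle 1 lay among the immature bottles.

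**Figure D4:**
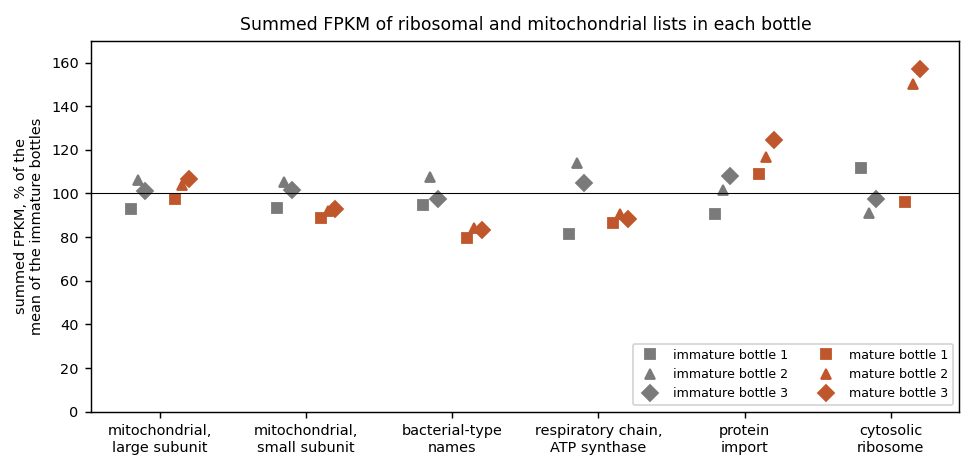
Summed FPKM of the large and small subunit of the mitochondrial ribosome and of 4 partner lists in each bottle, as percent of the mean of the 3 immature bottles (line at 100), with grey for immature, orange for mature and a symbol for each bottle number. In the mature bottles the large subunit lies at 97.3% to 106.5% and the small subunit at 88.9% to 93.1%, below every immature bottle (lowest 93.3%). The list with bacterial names lies at 79.4% to 84.3% and protein import at 109.1% to 124.6%, both without overlap, and the respiratory chain overlaps. The cytosolic ribosome reaches 150.2% and 157.2% in mature bottles 2 and 3 only.

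Nuclear genes for mitochondrial proteins can keep bacterial names. The 6 unigenes named 50S or 30S, which the rule left out, all had a log2 ratio below 0 (100%, against 57.7% of all unigenes), with a median of −0.24. Of these, 1 was lower at an unadjusted p of at most 0.05 (16.7%, against 9.33% of all unigenes). It was S12 (DN253_c0_g1, 402 bases), which lies at the decoding centre in bacteria. Its FPKM was 52.9, 56.6 and 47.1 in the immature and 24.2, 44.4 and 28.6 in the mature bottles, without overlap (log2 ratio −0.71, SE 0.23, adjusted p = 0.250 by limma). Their sum stood at 94.9%, 107.6% and 97.5% of the immature mean in the immature and at 79.4%, 84.3% and 83.1% in the mature bottles. With or without these 6, no unigene found by the name of a mitochondrial ribosomal protein passed the study's thresholds. The 13 unigenes with the gene ontology term that are not members did not pass them either. The largest log2 ratio among these was 0.99 (DN10664_c0_g1, 303 bases, named protein phosphatase methylesterase 1, adjusted p = 0.119 by limma). Of the 37 members, 4 shared their Nr protein with a further unigene outside the rule. Next to L24 in the assembly was an unnamed one (DN5203_c0_g1, 554 bases), which had 47.7, 59.0 and 44.5 FPKM in the immature and 33.0, 30.1 and 37.7 in the mature bottles (log2 ratio −0.57, SE 0.15, adjusted p = 0.194 by limma). The L24 member itself (DN5203_c0_g2) had 11.8, 18.7 and 11.5 against 13.1, 10.01 and 11.4 FPKM. The unnamed partner of S25 (DN10354_c0_g1, 376 bases) stood the other way, at 8.18, 10.1 and 3.5 FPKM in the immature and 11.9, 12.6 and 11.7 in the mature bottles (log2 ratio 0.76, SE 0.35, adjusted p = 0.360 by limma). That of rml2 (DN9875_c0_g1, 227 bases) had a mean of 163 FPKM, above that of the member, and scattered from 86.6 to 292 in the immature and from 101 to 202 in the mature bottles. That of img1 (DN4428_c0_g1) is named a polyadenylate-binding protein and had a log2 ratio of 0.02. How reads were divided within these pairs is not known, so the levels and ratios of the 4 members carry that limit.

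The proteins that work with these ribosomes were compared in the same fit, and no unigene of any list passed the study's thresholds or an adjusted p of 0.05. Of 9 unigenes of mitochondrial translation factors, 8 had a log2 ratio below 0 (88.9%, against 57.7% of all unigenes), with a median of −0.08. At an unadjusted p of at most 0.05, 1 was lower (11.1%, against 9.33% of all unigenes). This was elongation factor G (DN6677_c0_g1), which moves the ribosome along the messenger RNA, at 33.3, 32.4 and 31.9 FPKM in the immature and 23.1, 24.2 and 25.3 in the mature bottles. Its log2 ratio was −0.41 (SE 0.10, adjusted p = 0.176 by limma), with no overlap and little spread in either group. A shorter unigene of the same name (DN2216_c0_g1, 409 bases) overlapped between the groups, at a log2 ratio of −0.09 (SE 0.14). Its mean was higher, at 60.5 FPKM against 28.4. Another of that name (DN9908_c0_g1, 217 bases) overlapped too, at 0, 53.35 and 14.1 FPKM in the immature and 44.8, 0 and 16.3 in the mature bottles.

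The 7 mitochondrial tRNA ligases, which load tRNAs with amino acids, had a median log2 ratio of −0.01. At an unadjusted p of at most 0.05, 1 was lower (14.3%, against 9.33% of all unigenes). It was tryptophan-tRNA ligase (DN8745_c0_g1), at −0.67 (SE 0.23, adjusted p = 0.267 by limma). Of 7 unigenes found by words for ribosome assembly, 1 was lower (14.3%, against 9.33%), the RNA helicase mss116 (DN6322_c0_g1, −0.26), and the median was −0.19. The list was found by words in the names, and not all of its unigenes are assembly factors. OXA1L (DN1397_c0_g1), which inserts newly made proteins into the inner membrane, and cox18 (DN4095_c0_g1) had log2 ratios of −0.21 and −0.12.

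The import machinery, through which ribosomal proteins enter the organelle, had a median log2 ratio of 0.10 over 15 unigenes. The receptor subunit tom20 (DN10470_c0_g1) and the translocase subunit tim16 (DN4553_c0_g2) were higher at an unadjusted p of at most 0.05, at 0.66 and 0.46, and tim44 (DN8758_c0_g1) was lower at −0.48. That is 2 of 15 higher (13.3%, against 6.09% of all unigenes) and 1 lower (6.67%, against 9.33%). Tom20 had 174, 216 and 254 FPKM in the immature and 314, 349 and 345 in the mature bottles. The 52 unigenes of the respiratory chain and ATP synthase had a median log2 ratio of −0.06, beside −0.07 for the members. Of these 52, 1 was higher at that p (1.92%, against 6.09% of all unigenes) and 6 were lower (11.5%, against 9.33%). Their FPKM per member FPKM was 3.82, 4.70 and 4.51 in the immature and 4.06, 4.04 and 3.88 in the mature bottles. The groups overlapped, and immature bottle 1 was the lowest of its group for the respiratory chain sum, as it was for the members. This list too was found by words, and its sum includes assembly factors and an external alternative NADH-ubiquinone oxidoreductase (DN7204_c1_g1), its highest unigene. That unigene had 883, 1778 and 1647 FPKM in the immature and 1001, 794 and 767 in the mature bottles (log2 ratio −0.69, SE 0.30).

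**Figure D5:**
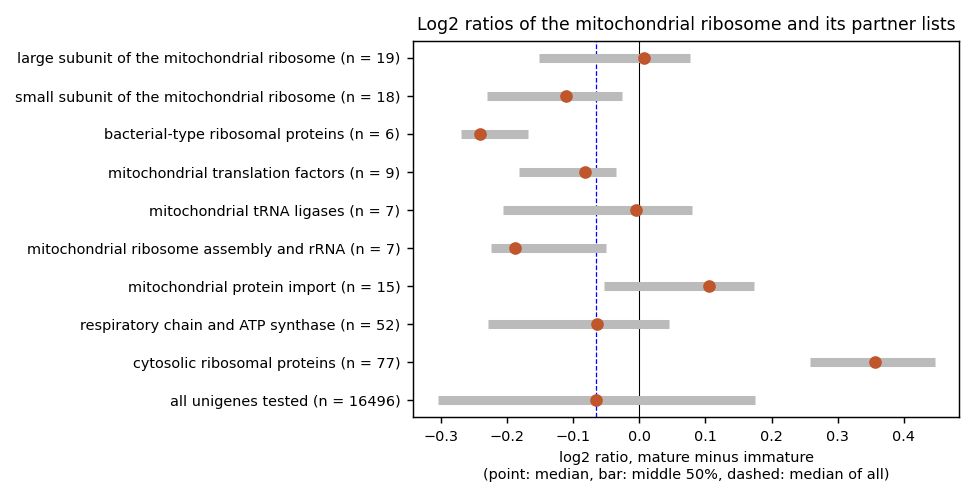
Median (point) and middle 50% (bar) of the log2 ratio of mature to immature mycelia for both subunits of the mitochondrial ribosome, 7 partner lists and all 16496 unigenes tested, whose median is the dashed line. The median was 0.01 for the large and −0.11 for the small subunit, and 0.36 for the cytosolic ribosomal proteins.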

How the data were processed

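RNA was extracted with TRIzol and sequenced paired-end on an Illumina platform from TruSeq Stranded mRNA libraries. The authors trimmed reads with cutadapt, assembled them with Trinity, clustered contigs with TGICL, took the longest isoform of each Trinity subcomponent as its unigene and estimated abundance with RSEM. The deposited table holds FPKM for 17030 unigenes in 6 libraries, with unigene length and database matches. FPKM depends on the assembly: a transcript split over several unigenes divides its fragments.

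Log2(FPKM + 1) was compared with limma 3.58.1 in R 4.3.3 (lmFit, eBayes with trend=TRUE, two-sided, no covariates) for 16496 unigenes with mean FPKM above 1, with Benjamini-Hochberg adjustment over all of them. The authors' own comparison used read counts, which were not used here. The added 1 shrinks log2 ratios of low unigenes. Figures used Python 3.11.15 and matplotlib 3.10.9.

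The members, partner lists and naming rule were chosen with earlier results of these data known. Members were named by level (6 highest and 3 lowest of each subunit), by log2 ratio (8 highest and 8 lowest of at least 500 bases and a mean FPKM of 5), by a shared match or by a value of 0, and by partner unigenes past the study's thresholds, of which there were none (0). Others, among them the partner unigenes with values, DN5103_c0_g1, DN5203_c0_g1, DN10354_c0_g1, DN9875_c0_g1, DN4428_c0_g1 and DN10664_c0_g1, were named after their values were seen. Partner lists were word searches in Swiss-Prot names. Results were recomputed with other pseudocounts, low-value filters, scalings and limma priors, a length limit, a block for bottle numbers and leaving out each bottle. The labels do not pair bottles.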

Additional observations from a re-analysis of the deposited data

How the results depend on the processing

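No member had an adjusted p of 0.05 or less under any alternative, where the lowest adjusted p of a member ranged from 0.145 to 0.515. Pseudocounts of 0.1 and 0.5, a mean FPKM above 5, no filter, scaling to a common sum and a robust variance prior kept every count of members within 1.5 times. Quantile normalization gave 2 members higher and 1 lower at an unadjusted p of at most 0.05, against 8.12% and 7.15% of all unigenes. It gave 3 members without overlap, and that share over all unigenes was not computed. Median centring gave 0 lower (7.46% of all unigenes). A prior without trend and the limit of 500 bases each gave 2 higher, against 5.48% and 7.31% of all unigenes tested. Leaving out each bottle in turn gave 0 to 0 members past the adjusted p and 0 to 1 past the study's thresholds. It gave 0 to 2 higher and 0 to 7 lower, against 3.96% to 7.13% and 6.07% to 12.1% of all unigenes. It gave 8 to 14 without overlap, which 3 bottles against 2 reach more readily, and the share of all unigenes was not computed for these fits. Over these, the median log2 ratio was −0.09 to −0.03 for members, −0.04 to 0.08 for the large subunit, −0.16 to −0.09 for the small subunit and 0.24 to 0.58 for cytosolic ribosomal proteins, of which 0 to 70 were higher. Without immature bottle 1, 14 large subunit members had a log2 ratio below 0. Of the small subunit, 15 members were below 0 in the main fit and 13 after quantile normalization. There were 12 after median centring, without immature bottle 3 and without mature bottle 1. The median of all unigenes was −0.07, and −0.00 after quantile normalization and −0.02 after centring, where 3 and 4 members changed sign.

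With the replicate block, 0 members were higher, 0 lower and 4 cytosolic ribosomal proteins higher at an unadjusted p of at most 0.05. In that fit 4.85% of all unigenes were higher and 7.58% lower. The numbers only name bottles: deviations of same-numbered bottles had correlations of −0.09, −0.04 and −0.01.

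The fragments behind each value are unknown, and the widest 95% intervals among the members were those of the L16 fragment and L39. Counts were not used, so no count test was run.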
